A study of Mus musculus with 12 samples.

Results

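A set of 9 genes of B cells and lymphoid follicles were followed in the colon of mice with dextran sodium sulfate (DSS) colitis. They were taken by gene name from the deposited count table and make up 9 of its 54532 genes: Cd79a, Cd79b, Blk, Ms4a1, Cr2, Fcer2a, Pax5, Cxcr5 and Cxcl13. They had been picked because their counts in single libraries lay far from those of the same treatment group, so the library values that follow are a description and were not tested. All 9 were among the 16904 genes that passed the filter on low counts.

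RNA-Seq covered 12 libraries of colon pieces from wild-type male C57BL/6J mice, obtained at 5 weeks of age, with 3 libraries in each of 4 groups. The control mice drank plain water and were left untreated. The model mice drank 3% DSS, which damages the lining of the colon. The Rhy mice drank DSS and were given rhynchophylline, an alkaloid, by mouth, and the sources used here do not tie these mice to a dose. The DXM mice drank DSS and were given dexamethasone, a glucocorticoid, at 4 mg/kg. The place along the colon from which each piece was cut is not stated in the labels. Each library is labelled as a separate sample, but nothing says outright that each came from its own mouse, so the spread between libraries may be partly technical.

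B cells of the colon gather mainly in lymphoid follicles, small nodules in the gut wall that are scattered along its length. A follicle holds naive B cells around a network of follicular dendritic cells, which secrete the chemokine CXCL13 and thereby draw in cells with its receptor CXCR5. Activated B cells mature in its germinal centre, while the plasma cells that arise from them spread through the mucosa between the follicles and secrete IgA.

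Levels are given as CPM, counts scaled to library size with edgeR's TMM factors, except where FPKM, the value per length, is named. Total counts were 14346478 to 17749716 per library, so 3 counts corresponded to 0.145 to 0.257 CPM. Libraries model 1 and model 2 were closer to each other than any further pair, with a common dispersion (variance between libraries beyond counting noise) of 0.00201 against 0.0604 to 0.351 in the other 65 pairs. They were kept as separate libraries, with a fit on their summed counts as an alternative. Markers of colon epithelium and of smooth muscle were at high levels in every library: the summed level of 12 epithelial genes was 20316 to 43253 CPM, and that of 10 smooth muscle genes was 3744 to 10508 CPM. The defining B cell markers were far lower in 2 libraries, control 3 and Rhy 1, than in the other 10, and near 0 in Rhy 1. Control 3 held 267 counts of the set and Rhy 1 held 40.

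In those 2 libraries the whole set was low. The 9 genes summed to 3.42 CPM in Rhy 1 and to 14.7 CPM in control 3, and to 114 to 176 CPM in each of the other 10 libraries. By group, the sums were 176, 153 and 14.7 CPM in control 1 to 3, 167, 164 and 156 in the model libraries, 3.42, 145 and 114 in the Rhy libraries, and 163, 171 and 165 in the DXM libraries. The model and DXM groups were thus tight, at 162 ± 5.67 and 166 ± 4.30 CPM (mean ± SD, n = 3), while the control and Rhy groups were spread over 115 ± 87.4 and 87.7 ± 74.6 CPM. Model 1 and model 2 were nearly alike over all genes, so the SD of the model group may understate the spread between mice. For each of the 9 genes Rhy 1 was the lowest library of the 12 and control 3 the second lowest. Both libraries lay below the other 10 in 1036 of the 16904 genes tested, 6.13%. Since tissue pieces and not sorted cells were sequenced, fewer cells of a type and less RNA per cell cannot be told apart.

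**Figure D1:**
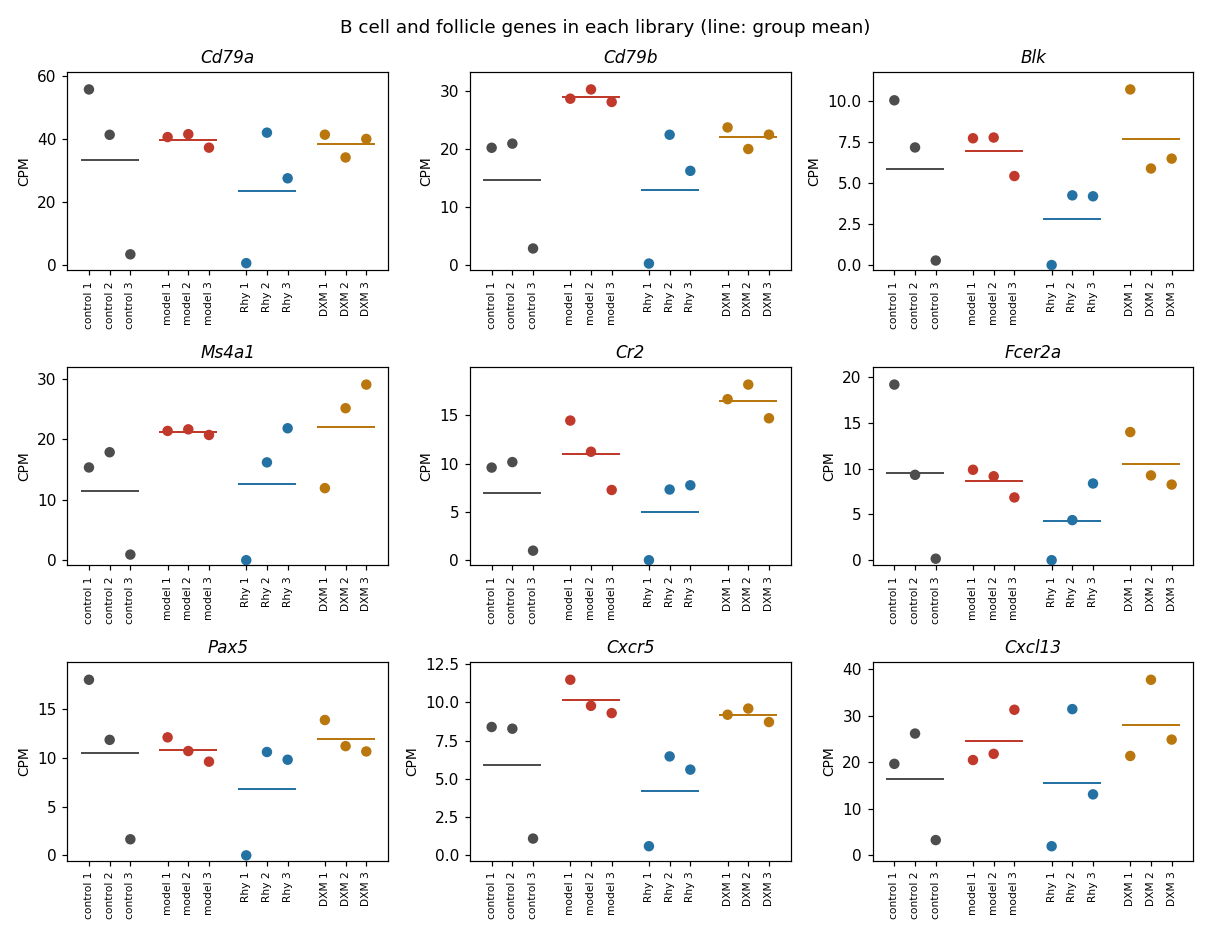
Each panel plots the level of 1 gene in CPM (linear axis) in the 12 libraries. Points are libraries, coloured by group, and the line is the mean of the 3 libraries of a group. In every panel Rhy 1 and control 3 are the 2 lowest points. The means of the Rhy and control groups lie below the other libraries of those groups, except for Fcer2a and Cxcl13. The control mean of Fcer2a (9.55 CPM) lies above control 2 (9.32 CPM), and the Rhy mean of Cxcl13 (15.5 CPM) lies above Rhy 3 (13.1 CPM).

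Cd79a, a gene of the B cell receptor complex, had the highest median FPKM of the set. Cd79a and Cd79b encode the signalling chains that sit beside the membrane antibody on every B cell, and Blk is a Src family kinase that acts on them. Cd79a (ENSMUSG00000003379, chromosome 7, 24897381 to 24902197, plus strand, GRCm38) was at 55.8, 41.4 and 3.40 CPM in control 1 to 3, 40.6, 41.6 and 37.3 in the model libraries, 0.599, 42.1 and 27.6 in the Rhy libraries and 41.4, 34.2 and 40.1 in the DXM libraries. Outside control 3 and Rhy 1 its levels spanned 27.6 to 55.8 CPM, and the 4 groups overlapped. The 7 counts of Rhy 1 stood against 1131 in Rhy 2 and Rhy 3 together, which is 57.2-fold lower after scaling to library size (95% exact interval 27.7 to 143, covering counting error only). Control 3 had 62 counts and was 14.2-fold lower than control 1 and control 2 together (interval 11 to 18.6).

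Cd79b (ENSMUSG00000040592, chromosome 11, 106311341 to 106314762, minus strand) was at 20.2, 20.9 and 2.85 CPM in the control libraries, 28.7, 30.3 and 28.1 in the model libraries, 0.257, 22.5 and 16.2 in the Rhy libraries and 23.7, 20.0 and 22.5 in the DXM libraries. The 3 model libraries were above the other 9, of which DXM 1 came nearest. Rhy 1 held 3 counts of this gene and was 74.5-fold lower than the rest of its group (interval 25.4 to 362), and control 3 was 7.21-fold lower (interval 5.42 to 9.78). Blk (ENSMUSG00000014453, chromosome 14, 63372836 to 63417037, minus strand) was at 10.03, 7.16 and 0.274 CPM in the control libraries, 7.72, 7.77 and 5.42 in the model libraries, 0, 4.24 and 4.19 in the Rhy libraries and 10.7, 5.88 and 6.48 in the DXM libraries. All 3 Rhy libraries were below all 3 model libraries for Blk. With no count in Rhy 1, its level there was at least 16.4-fold lower than in Rhy 2 and Rhy 3, taking 3 counts as the floor of that library, and control 3 with 5 counts was 31.1-fold lower than the other control libraries (interval 13.2 to 96.8).

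The chains Cd79a and Cd79b pair with each other in the receptor, so their ratio was followed as well. On the FPKM scale Cd79a stood above Cd79b in every library. The ratio was 2.71, 1.94 and 1.17 in control 1 to 3, 1.39, 1.35 and 1.303 in the model libraries, 2.29, 1.84 and 1.67 in the Rhy libraries and 1.71, 1.68 and 1.75 in the DXM libraries. The model libraries had the lowest ratios apart from control 3, where 62 and 52 counts carry it, and the ratio of Rhy 1 rests on 7 and 3 counts. The ratio was looked at after the levels had been seen and was not tested.

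Surface proteins of mature B cells followed the same pattern. Ms4a1 encodes CD20, Cr2 encodes the complement receptors CD21 and CD35, which follicular dendritic cells carry as well, and Fcer2a encodes the low-affinity IgE receptor CD23. For Cr2 and Fcer2a the 250 bases before the RefSeq start site (GRCm38.p6, 5′ to 3′ on the gene's own strand) are shown as the part of the gene that lies next to transcription, with every match to 5 short motifs in capitals. The Cr2 window is chr1:195176720-195176969 and the Fcer2a window chr8:3694175-3694424, both on the minus strand; the latter belongs to the RefSeq start nearest to the gene model of the count table, out of 3 listed.
Cr2: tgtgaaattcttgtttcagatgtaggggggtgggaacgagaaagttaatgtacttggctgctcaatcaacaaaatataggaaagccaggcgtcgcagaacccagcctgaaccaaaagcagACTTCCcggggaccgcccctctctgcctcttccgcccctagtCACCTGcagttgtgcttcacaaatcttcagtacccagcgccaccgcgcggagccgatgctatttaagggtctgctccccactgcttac
Fcer2a: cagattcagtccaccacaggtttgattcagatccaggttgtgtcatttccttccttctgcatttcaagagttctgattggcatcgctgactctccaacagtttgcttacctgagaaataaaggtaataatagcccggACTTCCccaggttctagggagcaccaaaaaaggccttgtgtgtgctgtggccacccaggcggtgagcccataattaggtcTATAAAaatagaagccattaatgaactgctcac
The capitals in Cr2 mark an ETS core read on the opposite strand (GGAAGT, starting 130 bases before the start site) and an E box, also on the opposite strand (CAGGTG, 88 bases before). In Fcer2a they mark an ETS core on the opposite strand, 113 bases before the start site, and a TATA box (TATAAA) 33 bases before it. Among all 32851 RefSeq windows of this length, 19.7% held the ETS core, 17.2% this E box and 12.4% the TATA box on either strand. Neither window held the octamer (ATGCAAAT, in 1.6% of all windows) or the palindromic EBF motif (TCCC, any 2 bases and GGGA, in 0.779%). Such matches describe the letters only.

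Ms4a1 (ENSMUSG00000024673, chromosome 19, 11249675 to 11266241, minus strand) was at 15.4, 17.9 and 0.933 CPM in the control libraries, 21.4, 21.7 and 20.7 in the model libraries, 0, 16.2 and 21.8 in the Rhy libraries and 11.9, 25.2 and 29.1 in the DXM libraries. Every model library was above every control library, and the DXM libraries spanned the model values on either side. Rhy 1 had no count of it and was at least 74.8-fold lower than the rest of its group, and control 3 was 17.9-fold lower (interval 11 to 30.9). Cr2 (ENSMUSG00000026616, chromosome 1, 195136811 to 195176716, minus strand) was at 9.58, 10.2 and 0.988 CPM in the control libraries, 14.5, 11.2 and 7.27 in the model libraries, 0, 7.31 and 7.75 in the Rhy libraries and 16.7, 18.2 and 14.7 in the DXM libraries. The 3 DXM libraries were the 3 highest of the 12 for this gene, with model 1 just under them. Rhy 1, again with no count, was at least 29.4-fold lower than its group, and control 3 was 9.998-fold lower (interval 6.21 to 17.1).

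Fcer2a (ENSMUSG00000005540, chromosome 8, 3681737 to 3694175, minus strand) was at 19.2, 9.32 and 0.165 CPM in the control libraries, 9.87, 9.16 and 6.85 in the model libraries, 0, 4.38 and 8.37 in the Rhy libraries and 13.99, 9.25 and 8.25 in the DXM libraries. It was the member that varied most among the 10 other libraries, 4.38-fold between Rhy 2 and control 1. Control 3 held 3 counts of it, 85.4-fold below control 1 and control 2 (interval 29.0 to 416), and Rhy 1 held none and was at least 25.4-fold lower than Rhy 2 and Rhy 3.

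Pax5, the transcription factor that fixes and keeps B cell identity, was the only factor among the 9 (ENSMUSG00000014030, chromosome 4, 44524757 to 44710487, minus strand). Its levels were 17.97, 11.8 and 1.65 CPM in the control libraries, 12.1, 10.7 and 9.59 in the model libraries, 0, 10.6 and 9.79 in the Rhy libraries and 13.9, 11.2 and 10.6 in the DXM libraries. Apart from the 2 low libraries and from control 1 it kept between 9.59 and 13.9 CPM. Rhy 1 had no count and was at least 39.5-fold lower than its group, and control 3 with 30 counts was 8.98-fold lower (interval 6.19 to 13.5). Genes on the opposite strand overlap Pax5 and Ms4a1, but none exceeded 0.145 CPM in any library; a microRNA gene within Pax5 reached 0.225 CPM.

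The chemokine Cxcl13 and its receptor Cxcr5 build the follicle. Cxcl13 is made mainly by stromal and follicular dendritic cells rather than by B cells. The 250 bases before its RefSeq start site are chr5:95956689-95956938 on the plus strand of GRCm38.p6.
Cxcl13: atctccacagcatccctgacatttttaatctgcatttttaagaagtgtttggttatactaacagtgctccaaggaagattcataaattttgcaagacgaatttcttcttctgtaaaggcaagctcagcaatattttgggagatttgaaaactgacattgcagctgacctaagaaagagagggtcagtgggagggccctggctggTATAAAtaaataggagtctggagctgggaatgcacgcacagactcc
The capitals mark a TATA box 46 bases before the start site; none of the other 4 motifs was in this window. Windows were at hand for 5 of the 9 genes, the others being Cd79a and Pax5: that of Cd79a held an ETS core 54 bases and an E box 154 bases before its start site, and that of Pax5 held none of the 5 motifs. No motif was shared by the 3 windows shown.

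Cxcl13 (ENSMUSG00000023078, chromosome 5, 95956951 to 95961068, plus strand) was at 19.7, 26.2 and 3.29 CPM in the control libraries, 20.5, 21.8 and 31.3 in the model libraries, 1.97, 31.5 and 13.1 in the Rhy libraries and 21.4, 37.8 and 24.9 in the DXM libraries. Rhy 2 and DXM 2 were its highest libraries besides model 3. Rhy 1 still had 23 counts and was 10.99-fold lower than its group (interval 7.27 to 17.5), and control 3 was 7.01-fold lower (interval 5.37 to 9.29). Cxcr5 (ENSMUSG00000047880, chromosome 9, 44511787 to 44561877, minus strand), which follicular helper T cells carry besides B cells, was at 8.39, 8.28 and 1.098 CPM in the control libraries, 11.47, 9.77 and 9.29 in the model libraries, 0.599, 6.47 and 5.602 in the Rhy libraries and 9.19, 9.59 and 8.71 in the DXM libraries. The model libraries were above all control and all Rhy libraries, and they overlapped the DXM libraries. Rhy 1 was 10.02-fold lower than its group (interval 4.77 to 25.2) and control 3 was 7.59-fold lower (interval 4.80 to 12.7). The gene Bcl9l on the other strand shares 110 bases with Cxcr5 and was at 23.7 CPM in Rhy 1 and 38.4 CPM in control 3. Whether the counting used strand is not stated, so some of the Cxcr5 counts may come from Bcl9l.

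**Figure D2:**
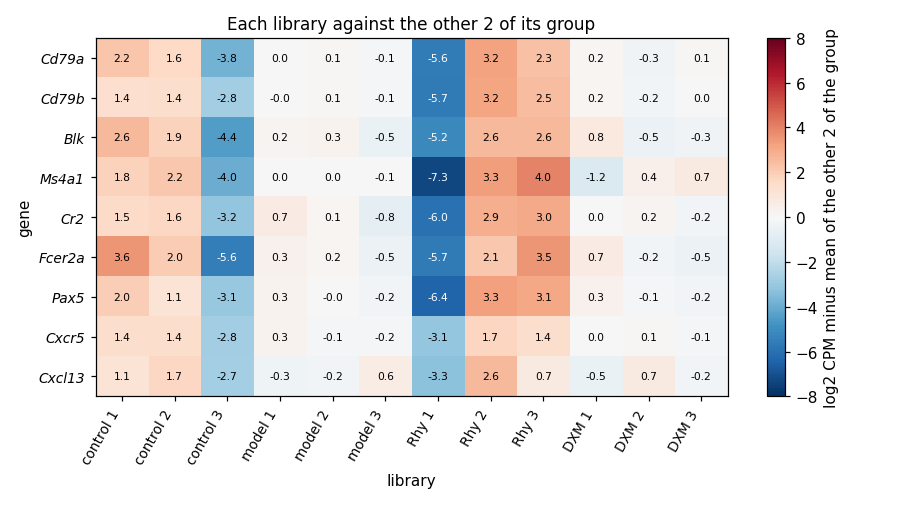
Colour and number give, for each gene (rows) and library (columns), the log2 CPM (prior count 2) minus the mean of the other 2 libraries of its group. Rhy 1 runs from -7.28 to -3.09 and control 3 from -5.56 to -2.74. The positive values of the other Rhy and control libraries arise because their comparison includes the low library.

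Measured against the mean log2 CPM of the other 2 libraries of the group, all 9 genes were at least 4-fold lower in Rhy 1, where 5.58% of the genes tested were, and all 9 were at least 4-fold lower in control 3, where 3.45% were. The median difference was -5.67 in Rhy 1 and -3.17 in control 3 on the log2 scale, against -0.02 and -0.00 over all genes tested. These log2 values include a prior count of 2 and so depend on it for genes without a count. In the 6 model and DXM libraries the 9 genes kept between -1.17 and 0.78. The members were chosen on this measure, so the counts describe the choice and no more.

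Per length, the order of the genes over the 12 libraries was Cd79a (median 26.9 FPKM), Cxcl13 (18.4), Cd79b (15.1), Ms4a1 (3.10), Fcer2a (2.78), Cxcr5 (2.53), Blk (2.23), Cr2 (1.23) and Pax5 (1.17). In the 10 libraries that held the genes at their usual level, the coefficient of variation of CPM was 17.7% for Cd79a to 41.2% for Fcer2a, with a median of 24.7%. Over 6238 tested genes with mean levels in the same range, the median was 24.4%. Between pairs of members, Pearson's r of log2 CPM over these 10 libraries was -0.589 to 0.845 with a median of 0.247, and 27 of 36 pairs were above 0. These correlations are descriptions over libraries that share treatment groups. No r between members over all 12 libraries is given, since the 2 low libraries stand apart from the rest.

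The order of the group means was mostly within the spread. DXM had the highest mean for 6 genes and the model group for 3, and the Rhy group had the lowest for 8 and the control group for 1, Ms4a1. Of the 27 steps between neighbouring groups in these orders, 3 exceeded the larger of the 2 SDs: Cd79b between model and DXM (29.0 ± 1.12 and 22.1 ± 1.89 CPM, n = 3), Cr2 between DXM and model (16.5 ± 1.75 and 10.98 ± 3.60 CPM) and Fcer2a between model and Rhy (8.63 ± 1.58 and 4.25 ± 4.19 CPM). The low means of the control and Rhy groups carried SDs of 4.18 to 27.1 CPM and 2.43 to 21.0 CPM. With model 1 and model 2 nearly alike, the SDs of the model group may be too small.

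Whether DSS changed these genes was addressed by the model and control groups. In edgeR's quasi-likelihood test over all 12 libraries, no member passed at an adjusted p under 0.05 (0 of 9) or without adjustment (0 of 9), as against 0% and 9.62% of the 16904 genes tested. The log2 fold change was above 0 for 8 genes and below 0 for Fcer2a, from -0.14 for Fcer2a to 0.99 for Cd79b, with a median of 0.59 where all genes had 0.01. Standard errors were 0.72 to 1.15, against a median of 0.34 over all genes, and the smallest adjusted p was 0.748. The members were picked for single libraries far from their own group, so wide standard errors and few calls were largely set by that choice. All 12 libraries share a fit, so this limit applies to the other comparisons over all 12 libraries as well. Cd79b averaged 29.0 CPM in the model and 14.7 CPM in the control group, with a log2 fold change of 0.99 ± 0.90 (SE). Cd79b, Ms4a1 and Cxcr5 did not overlap between the groups, being higher in each model library, a pattern that 10.4% of all genes showed in that direction. DESeq2 on all libraries gave no adjusted p for Cr2, Pax5, Cxcr5, Fcer2a and Blk, so these could not be called with adjustment. It called 0 of the other members with adjustment, and 0 of all members without. Over the 29984 genes with any count, the shares were 0.153% and 6.6%.

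The Rhy and model groups both drank DSS and differ by the drug. The fitted log2 fold change was below 0 for all 9 genes, from -1.29 for Blk to -0.66 for Pax5 with a median of -1.001, but 0 of 9 had an adjusted or an unadjusted p under 0.05, where 0% and 3.72% of all genes did. The adjusted p was 1.00 for each. Cxcr5 averaged 4.22 CPM in the Rhy and 10.2 CPM in the model group, a log2 fold change of -1.26 ± 0.73. Cd79b, Cxcr5 and Blk were lower in every Rhy library than in any model library, as were 6.02% of all genes. Without Rhy 1 the median was -0.43.

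Between the DXM and model groups the fold changes were small and of either sign. The log2 fold change was above 0 for 6 genes and below 0 for 3, from -0.40 for Cd79b to 0.59 for Cr2, and the median was 0.14. No member passed at an adjusted or unadjusted p under 0.05 (0 of 9 each), while 0% and 7.69% of all genes did, and the smallest adjusted p was 0.893. Cr2 was higher in each DXM library than in any model library, as were 10.4% of all genes, and Cd79b was lower in each, as were 12.2%. The remaining comparisons share these groups: the median log2 fold change was -0.47 for Rhy against control, 0.59 for DXM against control and 0.85 for DXM against Rhy. In each of them 0 of 9 members had an adjusted or unadjusted p under 0.05, where the unadjusted share over all genes was 11.6%, 18.9% and 5.02%.

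**Figure D3:**
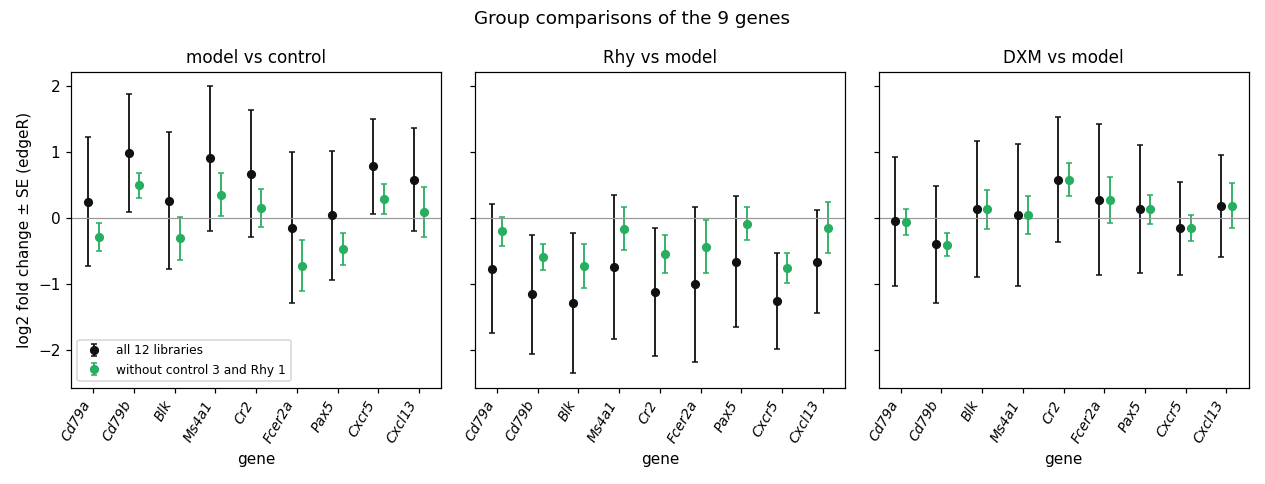
Points are log2 fold changes of the 9 genes in 3 comparisons and bars are 1 SE, from edgeR on all 12 libraries (black) and without control 3 and Rhy 1 (green). Leaving out those libraries narrows the bars from 0.71 to 1.17 down to 0.17 to 0.40, lowers the values of model against control and brings those of Rhy against model closer to 0, while DXM against model hardly moves.

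The fit was repeated without control 3 and Rhy 1 together, a choice made after the values had been seen. Standard errors of the members fell to 0.17 to 0.40. Against control, the median log2 fold change of the model group became 0.10, and Cd79a, Blk and Pax5 turned to values below 0 (-0.28, -0.30 and -0.46). The median of Rhy against model became -0.43 and that of DXM against model stayed at 0.14. At an unadjusted p under 0.05, 1 member passed in model against control (18.4% of all genes), 2 in Rhy against model (7.46%) and 2 in DXM against model (11.7%). They were Cd79b at a log2 fold change of 0.50 ± 0.19, Cd79b at -0.58 ± 0.19 and Cxcr5 at -0.75 ± 0.22, and Cd79b at -0.40 ± 0.17 and Cr2 at 0.59 ± 0.25. None had an adjusted p under 0.05 in edgeR: the smallest were 0.208, 0.588 and 0.409. Over all 17316 genes of that fit, 0 had an adjusted p under 0.05 in any of the 3 comparisons.

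Other genes of the B cell followed the members in the 2 low libraries. Of 17 tested genes of the B cell surface and of signalling, 13 were lower in both control 3 and Rhy 1 than in the other 10 libraries, with a median log2 difference from the group of -3.40 in Rhy 1 and -2.97 in control 3. Cd22, an inhibitory receptor, was at 0.514 CPM in Rhy 1, 0.768 CPM in control 3 and 8.36 to 36.5 CPM elsewhere. In the same order, Cd72 was at 0.514, 1.04 and 3.27 to 7.79 CPM, and the tetraspanin Cd37 at 1.37, 2.53 and 18.8 to 38.9 CPM. Blnk, the adaptor of receptor signalling and the highest gene of the list, was not low, at 128 CPM in Rhy 1, 126 CPM in control 3 and 84.0 to 173 CPM elsewhere. Cd180, the lowest gene of the list by mean CPM, was at 0.342 CPM in Rhy 1, 0.549 CPM in control 3 and 1.502 to 3.28 CPM elsewhere.

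Of 9 transcription factors 5 were below the other 10 libraries in both, Pou2af1, Pou2f2, Spib, Ikzf3 and Irf4, of which the last were named after their values were seen. Pou2af1, the octamer co-activator, was at 0.942 CPM in Rhy 1, 5.49 CPM in control 3 and 15.0 to 28.9 CPM elsewhere, and its partner Pou2f2 was at 0.514, 1.37 and 3.92 to 8.91 CPM. Spib was at 6.76, 6.86 and 20.4 to 34.7 CPM, so it was lower by less. Ebf1, which also marks stromal and fat precursor cells, was at 1.54 CPM in Rhy 1 but at 3.46 CPM in control 3, inside the range of 3.03 to 7.14 CPM of the others. Irf8, the highest of the list, which macrophages and other cells express too, was at 108, 115 and 70.1 to 140 CPM.

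Signals that organise follicles and T cell zones followed, with 12 of 14 tested genes below the other 10 libraries in both. Ltb, which with Lta forms the lymphotoxin ligand that induces Cxcl13, was at 3.17 CPM in Rhy 1, 5.27 CPM in control 3 and 20.3 to 44.4 CPM elsewhere. Lta had 3 counts in each of the low libraries (0.257 and 0.165 CPM) and 0.905 to 3.14 CPM elsewhere. Ccr6, the lowest of the list, was at 0.171, 0.329 and 0.343 to 2.84 CPM. The receptor Ltbr, found on stroma and epithelium, was at 139, 143 and 117 to 144 CPM and thus near the others, as was the B cell survival factor Tnfsf13b at 13.3, 8.78 and 5.52 to 16.7 CPM. Of 7 genes listed for follicular dendritic cells, 2 were low in both, named after their values were seen: Clu at 14.4, 15.4 and 108 to 192 CPM, and Mfge8 at 26.1, 38.2 and 90.4 to 149 CPM. Of 7 genes of the follicle epithelium and its M cells 3 were, Gp2, Sox8 and Marcksl1.

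**Figure D4:**
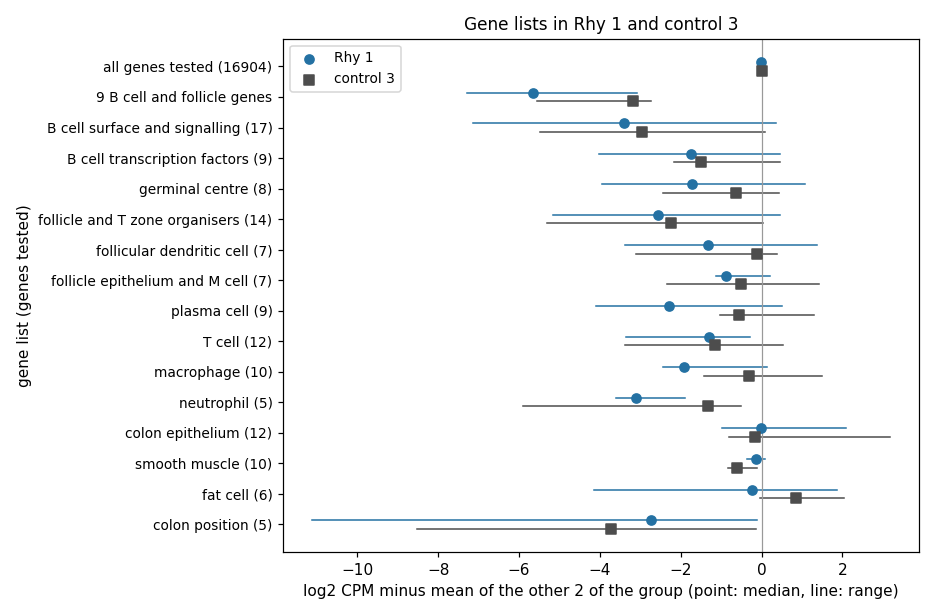
For each gene list (rows, with the number of genes tested) the point is the median and the line the range of log2 CPM minus the mean of the other 2 libraries of the group, for Rhy 1 (circles) and control 3 (squares). In Rhy 1 the 9 genes lie farthest to the left at -5.67, followed by the B cell surface list at -3.40. In control 3 the colon position list lies farthest to the left at -3.73 (-2.74 in Rhy 1). The 9 genes follow there at -3.17 and the B cell surface list at -2.97. The epithelial list lies near 0, at -0.01 in Rhy 1 and -0.16 in control 3.

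Lists of other cells moved in part with the 9 genes. T cell genes were below the other 10 libraries in both for 7 of 12, and their sum was 12.8 CPM in Rhy 1 and 36.3 CPM in control 3 against 27.4 to 71.7 CPM elsewhere. Macrophage genes were so for 2 of 10 (Cd68 and Itgam), with sums of 208 and 302 CPM against 283 to 634 CPM. Plasma cell genes were so for 1 of 9 (Mzb1), with sums of 733 and 3622 CPM against 761 to 11700 CPM. Neutrophil genes were so for 1 of 5 (Ly6g), and genes of epithelium, smooth muscle and fat for 0 of 12, 0 of 10 and 0 of 6. Ly6g was at 30.0 to 682 CPM elsewhere, while the next highest neutrophil gene, S100a8, reached 4.66 CPM. Whether Ly6g stands for neutrophils here is therefore unclear. The part of these cells in the result was not tested. Igha, the heavy chain of the secreted antibody, was at 174 CPM in Rhy 1 and 1741 CPM in control 3, and at 162, 163 and 1232 CPM in the model libraries that held the 9 genes at their usual level.

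Among 5 genes of colon position 1 was below the other 10 in both, Hoxb13, which is expressed in the hindmost colon. It was at 0.165 CPM in control 3, at 0 in Rhy 1, and at 1.49 CPM in model 3, against 72.0 to 316 CPM in the other 9 libraries. Hoxd13 and Hoxd12 were low in the same libraries but missed this count because model 3 was low too. In control 3, Rhy 1 and model 3, Hoxd13 was at 0, 0.342 and 0.0596 CPM, against 5.54 to 169 CPM in the other 9. Hoxd12 was at 0, 0.599 and 0.0596 CPM, against 0.899 to 8.56 CPM. Hoxa13 and Hoxd10 lay inside the range of the other 10 in both low libraries. Model 3 thus had little Hoxb13 while its 9 genes summed to 156 CPM. The part of position in the low values of control 3 and Rhy 1 was not tested. Rhy 1 also had the lowest total count and the fewest genes with a count, 19477 against 21178 to 23468, and mitochondrial genes took 23.8% of its counts and 6.33% of those of control 3, against 7.48% to 25.7% in the others. DXM 1, at 25.7%, had the 9 genes at 163 CPM. The part of total count, genes with a count and mitochondrial share in the low values was not tested either.

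**Figure D5:**
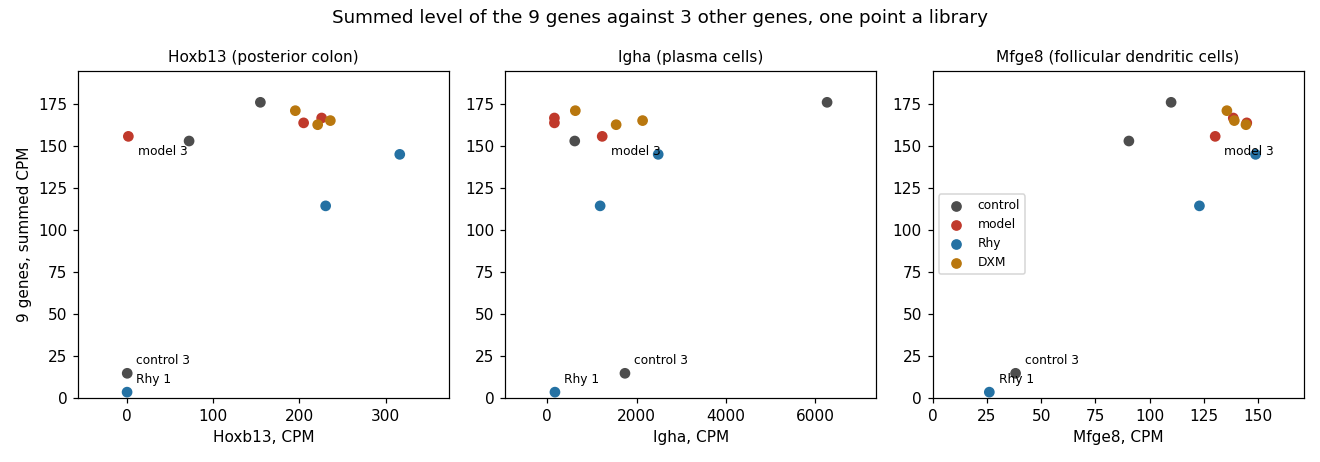
The summed CPM of the 9 genes (vertical axis) is plotted against the CPM of Hoxb13, Igha and Mfge8 (horizontal axes), 1 point a library coloured by group. Rhy 1 and control 3 lie at the bottom of each panel. Model 3 is at the left with them for Hoxb13 but stays at 156 CPM for the 9 genes, Igha spans 162 to 6265 CPM among the libraries at the top, and Mfge8 is low in both of the bottom libraries.

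The germinal centre list was followed because it tells active follicles from resting ones. Of its 8 tested genes, 7 had a log2 fold change above 0 in model against control (median 0.90), 8 below 0 in Rhy against model (median -0.97) and 7 below 0 in DXM against model (median -0.62), and 0 had an adjusted p under 0.05 in any of them in edgeR. The 3 comparisons share the model libraries, of which 2 were nearly alike.

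Mybl1, a factor of dividing germinal centre B cells, was at 3.07, 3.82 and 1.98 CPM in the control libraries, 7.39, 10.1 and 4.77 in the model libraries, 0.171, 3.66 and 5.26 in the Rhy libraries and 2.19, 5.16 and 2.99 in the DXM libraries. Its log2 fold change was 1.33 in model against control, -1.27 in Rhy against model and -1.10 in DXM against model. S1pr2, which holds B cells inside the germinal centre, had 0.88 in model against control, with an adjusted p of 0.506 in edgeR, -0.53 in Rhy against model and -0.12 in DXM against model. Bcl6, the central factor of the germinal centre, had 0.27, -0.50 and -0.13. In Rhy against model, the value of Mybl1 was -0.73 without Rhy 1 and -1.92 without Rhy 3, and that of S1pr2 was -0.27 without Rhy 1 and -0.99 without Rhy 3. That of Bcl6 in model against control ran from 0.12 without model 3 to 0.52 without control 1. In the low libraries 4 of the 8 genes were below the other 10, Bcl6, Mybl1 and Il21r among them. Bcl6 was below by little, at 8.65 CPM in Rhy 1, 9.55 CPM in control 3 and 9.74 to 15.7 CPM elsewhere. Sh2d1a, the lowest gene of the list, was at 0.342 CPM in Rhy 1, 0.055 CPM in control 3 and 0.182 to 1.11 CPM elsewhere.

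For the other B cell lists the group comparisons gave no call. The median log2 fold change of the 17 surface and signalling genes was 0.21 in model against control, -0.70 in Rhy against model and 0.02 in DXM against model, that of the 9 transcription factors 0.26, -0.44 and -0.10, and that of the 14 organisers 0.38, -0.35 and 0.41. Leaving out a single library moved these medians by differing amounts. Without control 3 those of model against control were -0.31, -0.21 and -0.10, in the same order of lists. Without Rhy 1 those of Rhy against model were -0.25, -0.35 and 0.0968, with the transcription factors moving least. Leaving out other single libraries, they ran up to 0.69, 0.37 and 0.75 in model against control (without control 1, control 1 and control 2) and down to -1.10, -0.74 and -1.09 in Rhy against model (without Rhy 3, Rhy 2 and Rhy 2). In DXM against model the median of the surface genes was -0.12 without DXM 1. In edgeR 0 genes of these lists had an adjusted p under 0.05 in any of the 3 comparisons. At an unadjusted p under 0.05 they held Blnk and Tnfsf13b, lower in model than in control, and Irf8, lower, and Tnfsf13b, higher, in DXM than in model.

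The genes whose pattern was most like the 9 were ranked over all libraries, so that the order is set by the low values of Rhy 1 and control 3 on which the members were picked, and it is a description only. By Pearson's r between their log2 CPM and the mean standardised log2 CPM of the members over 12 libraries, the first 10 were Fcmr (0.994), the Fc receptor for IgM, Fcrl1 (0.990), Wdfy4 (0.988), Fcrla (0.986), the antibody heavy chains Ighd (0.986) and Ighm (0.984), Cd37 (0.983), Chst10 (0.981), Tnfrsf13c (0.981), the receptor for the survival factor BAFF, and Treml2 (0.976). With each gene centred on its group mean, Mfge8 (0.993), Ly9 (0.988) and Cd83 (0.982) entered and Ighm, Cd37 and Chst10 left. Ighd, the antibody of naive B cells, was at 0.0856 CPM (1 count) and 1.21 CPM there and at 22.4 to 67.7 CPM elsewhere, and Ighm was at 2.40 CPM and 11.6 CPM there and at 65.4 to 122 CPM elsewhere. Chst10, whose product is not particular to B cells, was at 0.599 and 1.26 CPM there and at 2.74 to 3.91 CPM elsewhere.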

How the data were processed

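RNA-Seq of 12 libraries of mouse colon was analysed, with 3 libraries in each of the groups named in the labels as control, model, Rhy and DXM. The submitters' processing notes name HISAT2 2.0.5, featureCounts 1.5.0-p3, DESeq2 1.16.1 and the build mm10, without parameters or a strand setting. The authors deposited counts, whole numbers of reads per gene without normalization, and FPKM values made from the same counts. Of 54532 genes, 24548 had no count, and 16904 passed edgeR's filterByExpr (minimum count 10).

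Groups were compared with edgeR 4.0.16 under R 4.3.3 (TMM, glmQLFit, glmQLFTest, two-sided, all 12 libraries in 1 fit, Benjamini-Hochberg adjustment over all genes tested, threshold 0.05). Standard errors are the log2 fold change over the square root of the F statistic. CPM carries no prior count, and a prior count of 2 was used for log2 CPM. The alternatives were DESeq2 1.42.0, limma 3.58.1 on log2(FPKM + 1) and log2(FPKM + 0.1), RLE and upper-quartile scaling, every gene that had a count, fits of the compared groups alone, a replicate block, model 1 and 2 as 1 library, and each library left out. Folds of 1 library have exact binomial intervals at 95%, and a gene without counts was set to 3 counts. The scripts were tested on simulated counts.

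The 9 genes and all gene lists were chosen with earlier results of these data known. The lists come from general knowledge. Named genes are the 9 members, the first 4 tested genes and the highest and lowest of the 4 B cell and follicle lists, and the 10 genes most like the members by Pearson's r; some that the rule selects are not reported here. Genes named from the other lists, and Ikzf3, Irf4 and Il21r, fall outside this rule and were chosen after their values were seen. Promoter windows come from RefSeq (GRCm38.p6) and matched 5 of the 9 genes; the Cd79a window is not shown because 116 of its bases lie in the gene model of the count table.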

Additional observations from a re-analysis of the deposited data

How the results depend on the processing

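No member had an adjusted p under 0.05 under any of the alternatives run in model against control, Rhy against model or DXM against model. The smallest adjusted p values over the alternatives were 0.208, 0.588 and 0.272, in that order. In model against control, DESeq2 on all libraries gave no adjusted p for Cr2, Pax5, Cxcr5, Fcer2a and Blk. All genes called in model against control, 0 in edgeR, numbered 1 among genes with any count, 1 with only the groups compared, 46 with DESeq2 on all libraries and 167 with DESeq2 on only the groups compared; in Rhy against model they numbered 5 and 41 with these DESeq2 fits and 2 with limma on log2(FPKM + 0.1); in DXM against model 2 with only the groups compared, 52 and 590 with DESeq2 and 2 with limma on log2(FPKM + 0.1). Leaving out 1 library gave 0 to 1, 0 to 1 and 0 to 0. On log2(FPKM + 1), 4 of the 9 genes were 4-fold lower in control 3 and 4 in Rhy 1, since a pseudocount of 1 is near the level of several genes.

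The sign changed in 13 of 207 fold changes of model against control, 0 of Rhy against model and 9 of DXM against model, all from values near 0. In model against control, without control 3 and Rhy 1 together, Cd79a became -0.28, Pax5 -0.46 and Blk -0.30; Pax5 became -0.00836 with RLE scaling and -0.0117 with DESeq2 on all libraries; Fcer2a became 0.23 and 0.94 with limma on log2(FPKM + 1) and log2(FPKM + 0.1). In DXM against model, Cd79a became 0.0275 with upper-quartile scaling, and Ms4a1 -0.00778 and -0.0317 with limma at these pseudocounts. Leaving out 1 library, values ran from -0.31 to 0.84 for Cd79a, -0.49 to 0.69 for Pax5, -0.75 to 0.88 for Fcer2a and -0.33 to 0.92 for Blk in model against control, where control 3 turned Cd79a, Pax5 and Blk, control 1 Fcer2a and model 1 Pax5. In DXM against model they ran from -0.10 to 0.0304 for Cd79a, -0.19 to 0.35 for Ms4a1, -0.0868 to 0.42 for Cxcl13, -0.17 to 0.30 for Blk and -0.41 to 0.037 for S1pr2. The causes were not tested.

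Libraries with the same replicate number correlated at -0.310 to 0.363 (median -0.030) in their deviations from the group means, above 0.1 in 6 of 18 pairs. Differently numbered libraries were not set beside them, so whether the numbers pair the samples was not tested. With the replicate block, Fcer2a was 0.00974 in model against control and Ms4a1 -0.062 in DXM against model, and 0 members had an adjusted p under 0.05. Depth limits the low libraries: 3 counts were 0.257 CPM in Rhy 1, and levels under this rest on fewer counts or on none.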
